A study of Mus musculus with 10 samples.

Results

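Most H3K4me3 lies at the starts of genes, and the regions described here are those that do not. A union of the peaks of 8 libraries from neuronal nuclei of area CA1 in the mouse hippocampus gave 137922 regions. Of 22694 autosomal regions with a peak in all 8 libraries, 2372 (10.5%) lay more than 10 kb from every annotated RefSeq gene of any biotype, pseudogenes and noncoding genes included. These are called shared distal regions below. They were chosen by the presence of a peak and by position, so that their presence in every library is a description and not a result. Most distal regions were not shared. Of 21593 autosomal regions more than 10 kb from every gene, 9670 (44.8%) had a peak in 1 library only.

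H3K4me3 stands for 3 methyl groups on lysine 4 of histone H3, written by SET1 and MLL enzyme complexes. It is known as a mark of gene starts that are active or poised, above all of those rich in CpG dinucleotides. Far from annotated genes it can mark the start of an unannotated transcript, such as the long precursor of a microRNA (miRNA), whereas enhancers are known for the monomethylated form and carry little of the trimethylated one.

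Male mice of 3 months were labelled as CamkdeltaC transgenic (4 libraries) or as littermate controls (4 libraries). CaMKIIδC is a cytosolic splice form of a calcium/calmodulin-dependent protein kinase, best known from heart muscle, and mice overexpressing it there are known as a model of heart failure. The promoter that drives the transgene here is not given in the sources used here. Per the labels' protocols, controls drank vehicle, and transgenic mice drank vehicle or vorinostat, a histone deacetylase inhibitor, while none of the 8 libraries carries a drug label. Nuclei were sorted for NeuN, a neuronal protein, before precipitation of H3K4me3, and 1 input library per genotype was not analysed here. Whether each library stands for an animal of its own is not stated, so the spread behind every p-value may be technical.

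Peaks on the sex chromosomes went against the male label of 5 libraries. These had between 4 and 15 peaks on chromosome Y, while transgenic replicate 3 and control replicates 1 and 4 had between 1024 and 1220. Peaks on chromosome X numbered 31362 in transgenic replicate 1, between 13023 and 13559 in transgenic replicate 4 and control replicates 2 and 3, and between 1145 and 1293 in the other four. No shared distal region lies on a sex chromosome, but the centring, fit and adjustment took in regions of all chromosomes. The number of calls is therefore also given for a fit on autosomes only. The main medians are also given without the 5 libraries. Counts of regions at which the groups do not overlap use all 8. Depth is unknown, because peak lists carry no read counts. Peaks stood at all 12 neuronal marker genes in all 8 libraries, and at 5 of 6 microglial markers (Csf1r, Aif1, P2ry12, Tmem119 and Itgam) in none. Of 6 markers each, 2 of astrocytes, 2 of oligodendrocytes and 2 of endothelium had a peak in all 8 libraries.

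The most enriched of these regions included several near genes of brain miRNAs, short RNAs that pair with messenger RNAs through bases 2 to 8 of their mature form, the seed. Of the 2372 regions, 43 (1.81%) lay within 50 kb of an annotated miRNA gene. In the strongest decile by fold enrichment (238 regions) the number was 17 (7.14%), against 26 of 2134 (1.22%) in the other deciles. These 17 lay near 12 distinct miRNA genes, so they are not 17 separate cases. Mir6935 alone had 3 of them, all past its 3′ end. The genes also included Gm51288, Mir2139, Mir5131, Mir6239, Mir688 and Mir7230. At 10 of the 17 the region lay before the miRNA's 5′ end and at 3 past its 3′ end, and for 4 no strand was given in the table used. These neighbours were looked up after the regions' values were seen, and nearness names no target. The mature sequences of 5 miRNAs, whose genes lie downstream of the strongest such regions, are shown because they identify what lies beside them. Mirlet7b and Mir30c-2 are not among the 12, since Mirlet7c-2 and Mir30a lie nearer to the same regions. The sequences are from RefSeq (GRCm38.p6), with the seed in capitals. The let-7 pair shares 1 seed and the miR-30 pair another.
mmu-let-7c-5p: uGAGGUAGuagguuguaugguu
mmu-let-7b-5p: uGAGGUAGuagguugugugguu
mmu-miR-30a-5p: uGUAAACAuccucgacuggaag
mmu-miR-30c-5p: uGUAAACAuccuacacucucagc
mmu-miR-129-5p: cUUUUUGCggucugggcuugc

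Below, widest means the largest mean covered length over the 8 libraries, not the longest span. The widest shared distal region, chr15:85668726-85684688 (mm10), ended 21915 bp before Mirlet7c-2 and 22631 bp before Mirlet7b, both on the plus strand. The let-7 miRNAs are known for holding back genes of early development as cells mature. Peaks covered 14353, 14958, 14660 and 15327 bp of it in the transgenic libraries and 13202, 13749, 14231 and 14511 bp in the controls. The groups overlapped, and the difference in log2 covered length, centred on each library's median over shared regions, was -0.01 ± 0.02 (SE, limma adjusted p = 0.915). Its peaks stood 32.8-fold to 55.6-fold over background at the summit, by the authors' values. The nearest annotated gene of any kind was the noncoding Lncppara, 19085 bp away.

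On chromosome 14, the region chr14:64573797-64577892 lay 10223 bp from Mir124a-1hg, the host transcript of miR-124, a miRNA known for its abundance in neurons. It had 3406, 3339, 3306 and 3258 bp covered in the transgenic group and 3449, 3388, 3411 and 3906 bp in controls. Control replicate 4 stood apart, and the other control values lay close to the transgenic ones. Of all shared distal regions this one had the smallest p towards narrower peaks in the transgenic libraries, and it did not pass (log2 difference -0.19 ± 0.06, limma adjusted p = 0.368). No sequence is shown for miR-124 or for miR-30d.

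Beside Mir30a, the region chr1:23256265-23257807 ended 14462 bp before the hairpin and 33894 bp before that of Mir30c-2, while Gm24176 was nearer at 10934 bp. It had 1027, 1406, 1423 and 1459 bp covered in the transgenic group and 1386, 1371, 1318 and 1449 bp in controls. Transgenic replicate 1 was the lowest, and the other seven lay between 1318 and 1459 bp. The region chr6:28980148-28983147, 39472 bp before Mir129-1 and 13736 bp from Gm40357, had 2424, 2724, 2994 and 2686 bp in the transgenic group and 2583, 2659, 2145 and 2552 bp in controls, again with overlapping groups. Near Mir30d, chr15:68361417-68362871 had 1070 ± 275 bp in the transgenic group and 961 ± 142 bp in controls (SD, n = 4 each). None of the 17 passed the test.

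**Figure D1:**
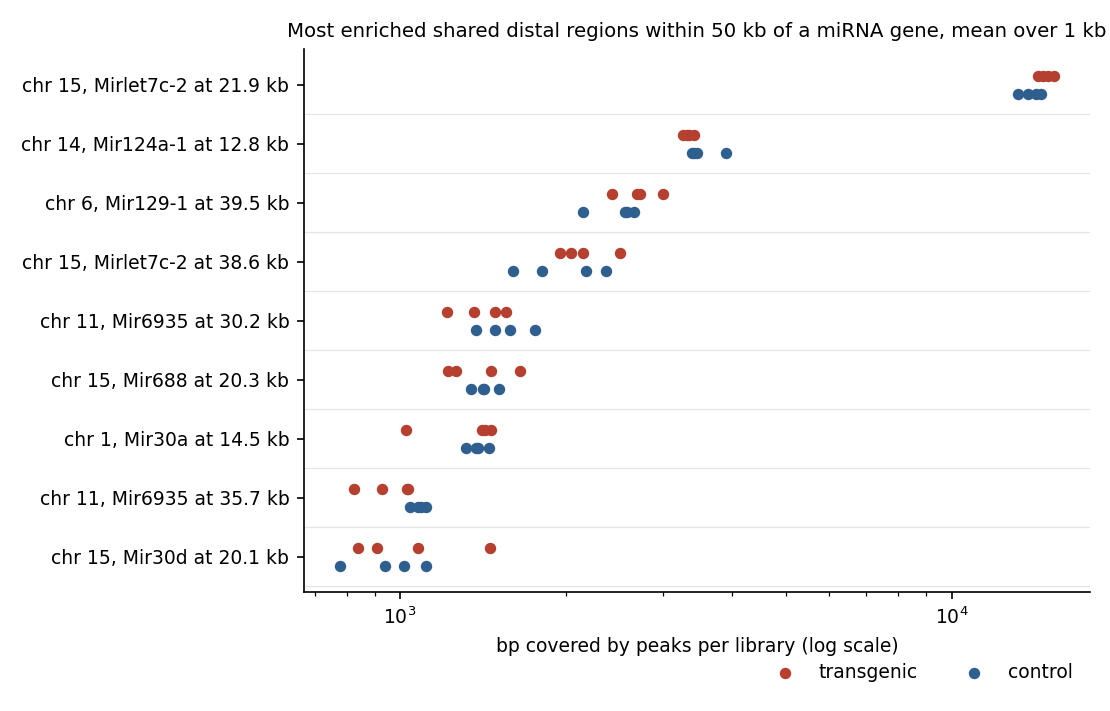
Bases covered by peaks in each library (log scale) at the 9 shared distal regions of the strongest decile that lie within 50 kb of a miRNA gene and average over 1 kb. Each point is 1 library, red for transgenic and blue for control; peaks cover at least 13202 bp of the let-7 region in every library, and the groups overlap at most regions.

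Shared distal regions were shorter and less enriched than shared regions over genes. Peaks covered a median of 674 bp (mean over libraries; quartiles 492 and 964 bp), against 1504 bp at the 17414 shared regions that overlap a gene. Of the distal ones 101 (4.26%) averaged over 2 kb, against 29.5% of those over genes. Within each library's list, where the 100th percentile is the highest fold enrichment, they stood at a median percentile of 56.9, against 85.9 over genes. The position of the highest summit spanned a median of 521 bp over the 8 libraries, against 305 bp over genes. Shared regions from 1 bp to 10 kb away from a gene (2908) resembled the distal ones more closely, with a median of 679 bp and percentile 59.1. None of these differences was tested, since the rule uses the peaks themselves.

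Covered length at shared distal regions was greater in each transgenic library than in each control. The median region had 891, 727, 698.5 and 721 bp covered in the transgenic libraries and 546, 573, 590 and 626.5 bp in the controls. The groups did not overlap, and transgenic replicate 1 stood above the rest of its group. The group values were 759 ± 88.6 bp and 584 ± 33.7 bp (SD, n = 4 each). Summed over all 2372 regions, peaks covered 2.32 ± 0.30 Mb in the transgenic group and 1.74 ± 0.09 Mb in controls. From 1 bp to 10 kb away from a gene the groups did not overlap either, at 757 ± 61.5 and 603 ± 31.3 bp. Over genes they overlapped, at 1526 ± 74.2 and 1476 ± 66.7 bp. Median fold enrichment at the distal regions did not overlap, at 6.48 to 7.29 in the transgenic group and 5.87 to 6.33 in control libraries. Its percentiles, which depend on the length of each library's list, overlapped narrowly. Their medians were 58.9 to 74.6 in the transgenic group and 49.5 to 59.1 in control libraries. Autosomal peaks, which numbered 70908, 62635, 57875 and 52998 in the transgenic group and 49734, 52037, 53781 and 52318 in controls, moved with covered length in part, and their part in the result was not tested.

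**Figure D2:**
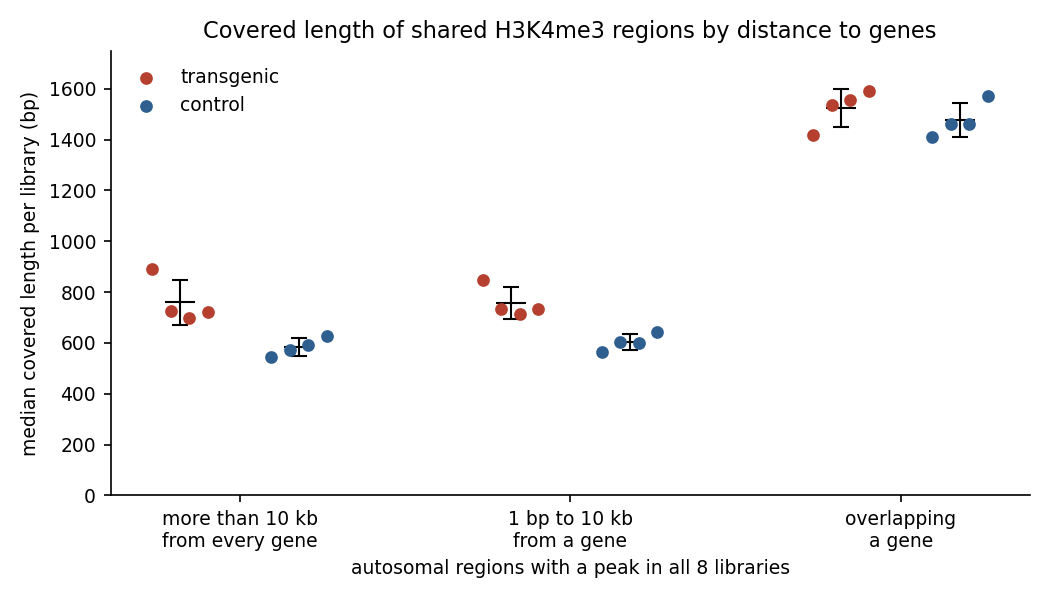
Median covered length per library in bp, for shared autosomal regions more than 10 kb from every gene, within 10 kb of one, and overlapping one. Points are libraries, horizontal marks with bars are group means ± SD (n = 4 each); the groups separate at the distal regions (698.5 to 891 bp against 546 to 626.5 bp) and within 10 kb of a gene (712 to 848 bp against 565.5 to 642 bp), and overlap over genes.

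Region by region, the log2 difference between transgenic and control libraries had a median of 0.20 over the shared distal regions, and 1684 of them (71.0%) lay above 0. Over all 72683 regions marked in 2 or more libraries, the set fitted, the median was 0.03 and 52.6% lay above 0. From 1 bp to 10 kb away from a gene the median was 0.13 with 65.2% above 0, and over genes it was -0.08 with 26.2%. Of the 17414 regions over genes, however, 13113 had fold enrichments in the range of the strongest distal decile or above it, with a median of -0.09. In the ranges of distal deciles 1 to 8, regions over genes had medians of 0.07 to 0.21. Distal regions had 0.21 to 0.34 there, and those from 1 bp to 10 kb away from a gene had 0.16 to 0.33. These differences were not tested. These values moved with the scaling. Without centring the distal share above 0 was 83.1% and the median over all regions moved from 0.03 to 0.13, while quantile normalization gave 54.6% and a distal median of 0.06. Without transgenic replicate 1 the distal median was 0.11. It was 0.17 among the 4 libraries with many X peaks and 0.09 among the 4 with few. Without the 5 libraries with few Y peaks it was 0.08, which compares 1 transgenic with 2 control libraries. On the same 3 libraries the medians of the subsets described below were -0.09 in the strongest decile and 0.12 in the others, 0.16 in crowded windows and -0.05 for regions alone in theirs, 0.17 beside chemosensory receptor genes and 0.22 at chromosome starts.

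Few regions passed singly. In limma, 11 of the 2372 were broader in the transgenic group at an adjusted p of 0.05, against 0.0454% of all regions fitted, and 0 were narrower, against 0.00275%. At an unadjusted p of 0.05, 379 were broader and 4 narrower, against 4.5% and 1.81% of all regions. At 291 (12.3%) all 4 transgenic libraries had more bp covered than all 4 controls, against 3.26% of all regions, a state called groups apart below, and at 7 all had less, against 0.169%. In bp, either state needs a peak in at least 4 libraries. Only 42267 of the 72683 regions fitted had that many, which holds down the shares over all regions here and below. On the centred scale those counts were 178 and 33, or 7.50% and 1.39%, against 1.99% and 3.09% of all regions. Shared regions from 1 bp to 10 kb away from a gene showed similar counts, with 11 of 2908 broader in limma and 300 (10.3%) with groups apart, while over genes 10 of 17414 were broader, 2 narrower and 584 (3.35%) apart upwards. No test compared these classes. The 95% interval of the log2 difference lay within a 1.5-fold change either way at 331 regions.

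All 11 lay in windows of 1 Mb with at least 18 shared distal regions. Of these regions 4 were on chromosome 7 and 3 on chromosome 17, and for 6 the nearest gene was a pseudogene. Of all 2372 shared distal regions, 36.1% were on chromosomes 7 and 17, and 60.8% lay in windows with at least 10. The nearest gene was a pseudogene for 34.9% of them and a transcribed pseudogene for 1.77%. The mean covered length of the 11 was 1.60 to 4.20 times as high in transgenic as in control libraries. Their highest summits moved by 591 to 2877 bp between libraries, and the authors' fold enrichments placed them between percentiles 43.5 and 66.9, below the median of shared regions over genes.

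The smallest adjusted p belonged to chr5:145907101-145909727, which lay 27247 bp from Cyp3a11, a liver cytochrome P450 gene. It had 1944, 1829, 1507 and 1051 bp covered in the transgenic group and 450, 304, 470 and 285 bp in controls, which gave log2 1.70 ± 0.24 (SE, limma adjusted p = 0.00425). The lowest transgenic library covered over 2 times the length of the highest control. Another cytochrome cluster held chr7:26965382-26967250, which lay 12830 bp from the pseudogene Cyp2a21-ps. It had 1316, 1083, 1208 and 1062 bp against 200, 284, 222 and 510 bp (log2 1.60 ± 0.28, limma adjusted p = 0.0276).

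Vomeronasal receptors detect pheromones in the sensory neurons of the nose, and 3 of the 11 regions had one as their nearest protein-coding gene. At chr7:42972220-42975489, beside the pseudogene Gm9294 and 38431 bp from Vmn2r63, peaks covered 2499, 2253, 2221 and 2200 bp in the transgenic group and 1187, 1462, 1111 and 1085 bp in controls (log2 0.77 ± 0.11, limma adjusted p = 0.00492). Both groups were tight there, with SDs of 139 and 173 bp. At chr17:18400153-18402293, 21811 bp from Vmn2r95, they covered 1784, 1385, 1328 and 1402 bp against 278, 200, 829 and 200 bp (log2 1.79 ± 0.31, limma adjusted p = 0.0300), where transgenic replicate 1 and control replicate 3 stood high in their groups. The 200 bp of control replicates 2 and 4, and of control replicate 1 at chr7:26965382-26967250, was the lowest length in any library at the regions named here. At chr17:19625607-19628945, 13290 bp from Vmn2r101, peaks covered 2670 ± 196 and 1673 ± 306 bp (log2 0.55 ± 0.10).

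Receptors of the Mas-related family, known from itch and pain neurons, neighboured 2 regions. At chr7:47947867-47949600, beside Mrgprc2-ps and 31194 bp from Mrgpra4, peaks covered 1482, 1018, 1488 and 1660 bp in the transgenic group and 565, 626, 507 and 503 bp in controls (log2 1.10 ± 0.19). At chr7:47514719-47518067, 25137 bp from Mrgpra2b, they covered 2263 ± 183 and 1165 ± 359 bp. An olfactory receptor gene, Olfr58, lay 14782 bp from chr9:19762850-19765501, with 1899 ± 274 and 928 ± 230 bp. The remaining ones lay near predicted genes or zinc finger genes: chr17:22103875-22108132 (36223 bp from Zfp947) with 3292 ± 338 and 1622 ± 262 bp, chr4:121635640-121639852 (13515 bp from Gm12887) with 3120 ± 632 and 1713 ± 92.3 bp, and chr13:61964987-61967161 (16843 bp from Gm21935) with 1572 ± 299 and 665 ± 181 bp. Groups did not overlap at any of the 11.

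The 11 calls varied with the libraries and settings. Without transgenic replicate 1 the count was 3, without transgenic replicate 2 it was 6, and without transgenic replicates 3 or 4 it was 7. With the fit limited to autosomes the count was 2. It was 0 in the fit limited to regions marked in 4 or more libraries, and 0 among the 4 libraries with many X peaks and among the 4 with few. Each of the 11 passed in 6 to 18 of 27 alternatives. Their differences stayed positive in all 27, which the choice of regions by these same libraries largely fixed in advance.

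**Figure D3:**
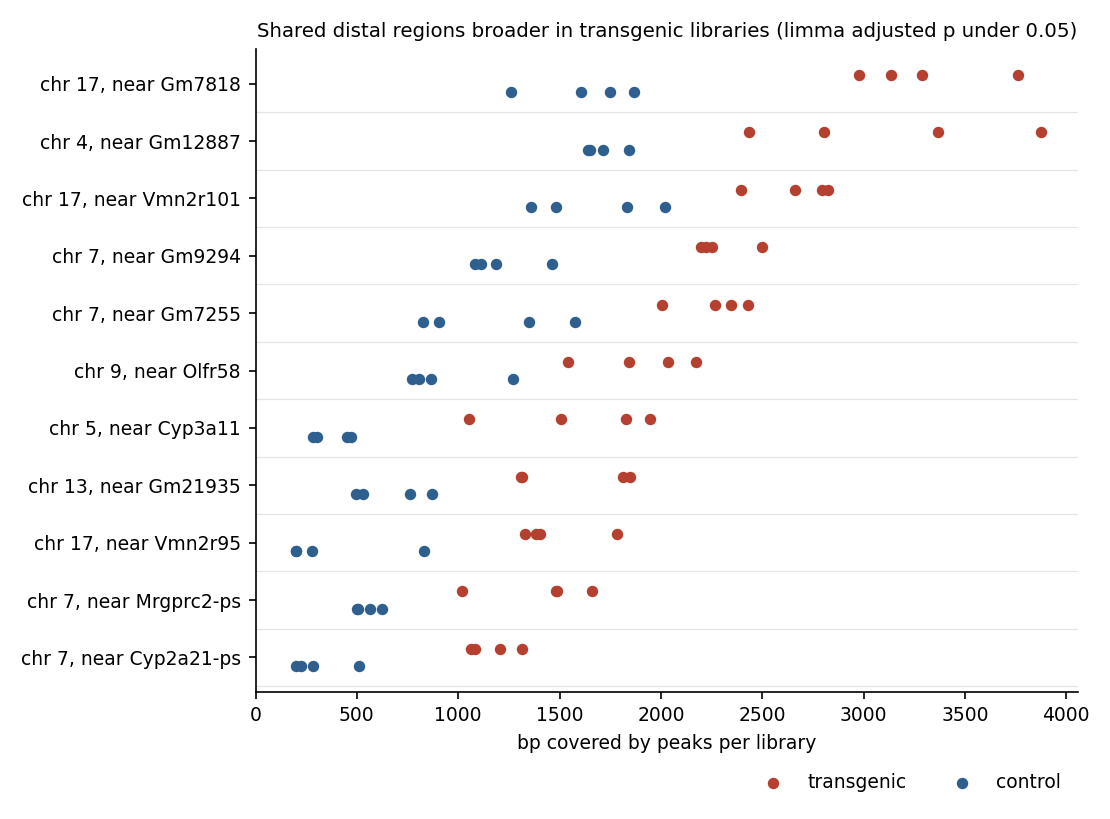
Bases covered by peaks in each library at the 11 shared distal regions that passed the limma test, labelled by chromosome and nearest annotated gene. Each point is 1 library, red for transgenic and blue for control; every red point of a region lies to the right of its blue points, as at chr 5 near Cyp3a11 (1051 to 1944 bp against 285 to 470 bp).

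Towards narrower peaks, the 5 regions with the smallest p did not pass. Besides the Mir124a-1hg region they were chr2:92058203-92060776, which stood 34033 bp from Creb3l1 and 12951 bp from the noncoding Gm31473, with 1797, 2371, 2165 and 2397 bp in the transgenic group and 2356, 2495, 2381 and 2510 bp in controls (log2 -0.26 ± 0.09, limma adjusted p = 0.459). This region was among the 5 most enriched of all shared distal regions. The remaining ones had 445 ± 146 and 680 ± 128 bp near Enpp3, an ectonucleotide phosphodiesterase gene, 437 ± 240 and 741 ± 284 bp near Rngtt, the mRNA capping enzyme gene, and 653 ± 233 and 921 ± 197 bp near Ubl3, each with a limma adjusted p = 0.702.

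The 238 regions of the strongest decile had a median log2 difference of -0.07, with 179 below 0 and 59 above, while the median of the other deciles ran from 0.11 to 0.34 and was 0.23 over their 2134 regions. Without centring the strongest decile's median was 0.03, so its sign depends on the scaling. In bp it had a median of 759, 836, 870.5 and 852 in the transgenic group and 774, 801.5, 795 and 865.5 in control libraries, which overlapped. All 4 transgenic libraries lay above all controls at 9 of its regions (3.78%), against 13.2% in the other deciles and 3.26% of all regions fitted. In the limma test 0 of its regions passed (5 broader and 2 narrower at an unadjusted p of 0.05). Its summits spanned a median of 191 bp over libraries, against 571 bp, and 67.2% of its regions were a single peak in every library, against 27.6%. Other shared regions in this range of fold enrichment or above it showed similarly low values. They were not matched to the decile, as no upper limit was set. Those over genes had a median covered length of 1740.5 bp, against 816 bp in the decile. The median log2 difference was -0.09 at 567 regions from 1 bp to 10 kb away from a gene and -0.09 at 13113 over genes. Groups were apart upwards at 1.59% of either set. Fold enrichment and covered length come from the same peaks, so these values describe and do not test.

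**Figure D4:**
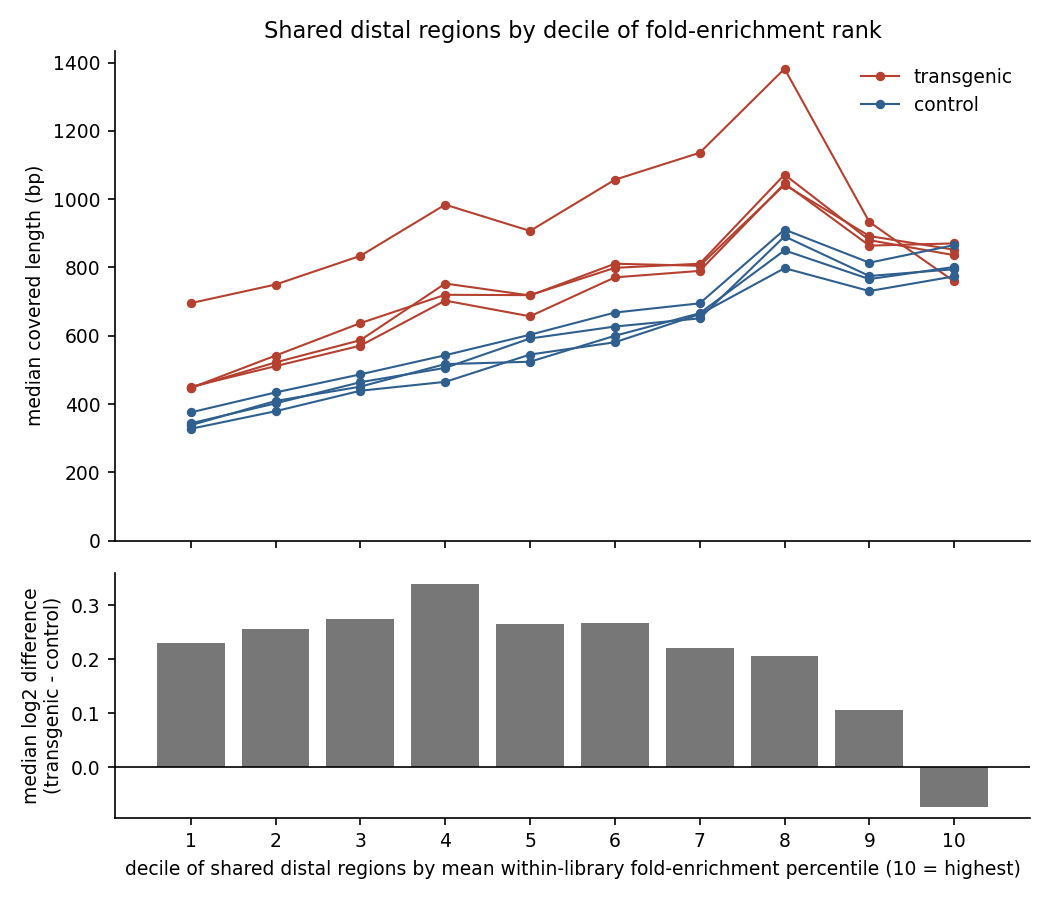
Top, median covered length in bp per library over each decile of the 2372 shared distal regions, ordered by mean percentile of fold enrichment (10 is highest), red for transgenic and blue for control libraries. Bottom, median log2 difference of each decile; it lies between 0.11 and 0.34 in the lower deciles and at -0.07 in the highest, where the libraries of both groups overlap.

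Of the strongest decile, 120 regions (50.4%) were alone in their 1-Mb window, against 270 (12.7%) of the others. The nearest gene was a long noncoding RNA at 34.0% of them and a pseudogene at 19.7%, against 12.9% and 38.6%. The 5 with the highest mean percentile were the let-7 region, the Gm31473 region, chr1:18056974-18059233 near Crisp4, chr7:41598618-41600395 near the noncoding Gm51480, and chr6:128759907-128761687 near Klrb1c. The Crisp4 one had 2065, 2069, 2150 and 2078 bp covered in the transgenic group and 2123, 2027, 2239 and 2113 bp in controls. Those lengths hardly differed between any of the 8 libraries. The Gm51480 region, at the highest percentile of all (95.1), had 1619 ± 50.1 and 1696 ± 44.6 bp, and the Klrb1c region had 1439 ± 260 and 1409 ± 46.8 bp.

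Shared distal regions were crowded together. The median gap to the next one was 14449 bp. Of the 2372, 1443 (60.8%) lay in 57 windows of 1 Mb that held at least 10, and 390 (16.4%) were alone in theirs. The crowded ones had a median log2 difference of 0.32, and 244 (16.9%) had all transgenic libraries above all controls. Those alone had a median of -0.06 and 9 such regions (2.31%). Over all regions fitted that share was 3.26%, and all these counts are in bp, without centring. In bp, crowded regions had a median of 1139, 819, 804 and 816 in the transgenic group and 588, 582, 637 and 661 in control libraries, and regions alone had 529, 597, 575.5 and 575.5 against 490.5, 561.5, 528 and 596.5. The groups separated among the crowded regions and overlapped among those alone. Without transgenic replicate 1 the crowded median was 0.20. The median of those alone was 0.05 without centring, so its sign too depends on the scaling. Crowded regions also stood lower in fold enrichment, at a median percentile of 55.0 against 65.0.

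The densest window, 38 to 39 Mb of chromosome 17, held 63 shared distal regions among olfactory receptor genes. The next were 2 windows of the same chromosome among Vmn2r vomeronasal receptor genes (58 regions at 19 to 20 Mb and 55 at 18 to 19 Mb) and 1 among genes of the exocrine gland-secreted peptides, Esp (49 regions at 39 to 40 Mb). On chromosome 7 the densest held 43 regions among secretoglobin genes (33 to 34 Mb), 41 among Mrgpr genes (48 to 49 Mb), 37 among Vmn1r genes (5 to 6 Mb) and 37 among the pregnancy-specific glycoprotein genes, Psg (18 to 19 Mb), and 1 on chromosome 12 held 41 (20 to 21 Mb). Median log2 differences in these 9 windows ran from 0.22 on chromosome 12 to 0.46. Chromosome 7 held 539 of the regions (22.7%), against 10.4% of the shared regions over genes, and chromosome 17 held 318 (13.4%), against 5.01%. Chromosomes 10, 11 and 15 held 1.69%, 1.81% and 1.39%, against 4.66%, 7.23% and 3.77% of those over genes.

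**Figure D5:**
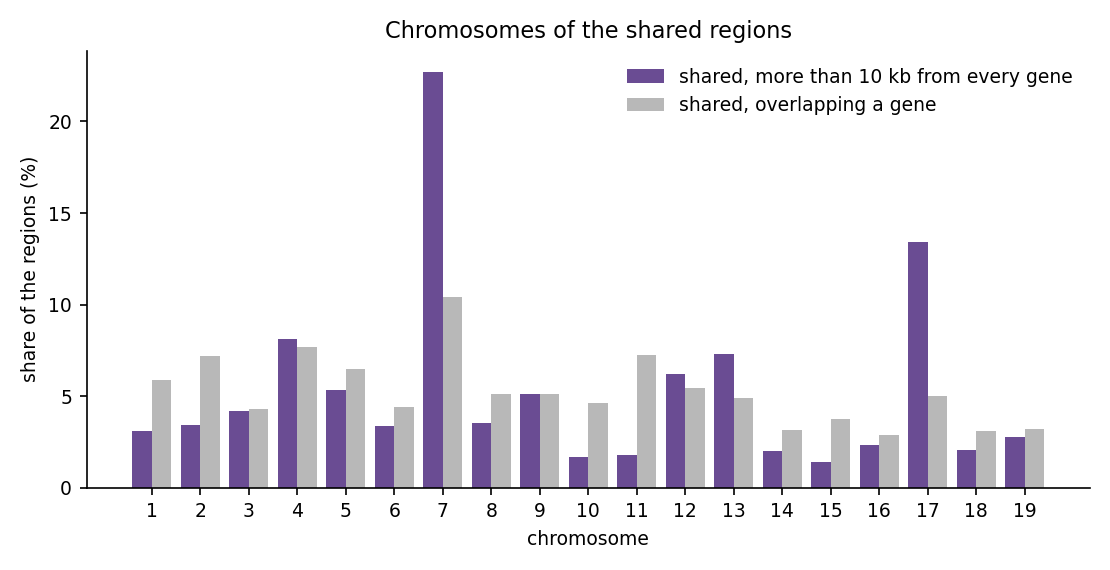
Share in percent of the 2372 shared distal regions (purple) and of the 17414 shared regions overlapping a gene (grey) on each autosome. Chromosomes 7 and 17 hold 22.7% and 13.4% of the distal regions, against 10.4% and 5.01% of those over genes.

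By nearest protein-coding gene, 552 regions (23.3%) lay beside chemosensory receptor genes, against 13.5% of all regions fitted. Their median log2 difference was 0.36, with 473 above 0, 6 of them broader in limma and 95 with groups apart (17.2%). All 9798 regions fitted beside such genes had a median of 0.47, with 15 broader in limma and 660 with groups apart (6.74%). The 4 largest families were Vmn2r with 188 regions beside 43 genes (median log2 0.38), Olfr with 144 beside 65 (0.37), Vmn1r with 132 beside 47 (0.27) and Mrgpr with 75 beside 14 (0.41). Regions beside tandem and rapidly evolving families numbered 630 (26.6%, against 21.6%), with a median of 0.26, 5 broader in limma and 90 with groups apart (14.3%). All 15729 regions fitted beside genes of that list had a median of 0.29, with 14 broader and 853 apart (5.42%). The widest shared distal ones were chr7:18318616-18326151, 19593 bp from Psg18, with 5975 ± 771 and 4144 ± 444 bp (limma adjusted p = 0.412), and chr12:18236894-18241899, 13155 bp from the pseudogene Gm40879, with 4026 ± 491 and 3188 ± 238 bp (limma adjusted p = 0.702). The list takes in 276 regions beside predicted genes whose symbols start with Gm. By symbol, 63 regions lay beside Scgb2b genes (median log2 0.39), 39 beside the sulfotransferase genes Sult2a (0.26) and 33 beside Cyp3a genes (0.25). Esp genes, on neither list, neighboured 95 (0.33). Reads from near-identical copies of such genes cannot always be placed, how they were treated is not given in the sources used here, and their part in these differences was not tested.

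The lists of transcription factor, synaptic and activity genes took in few of the regions, and the first is not limited to neuronal genes. The list of forebrain and developmental transcription factors had 23 regions (0.970%, against 1.21% of all regions fitted) beside 18 genes, with a median log2 difference of 0.01 and 0 called. At 3 of them all transgenic libraries lay above all controls and at 2 below, against 11 and 6 of the 881 regions fitted beside genes of that list. The widest were chr12:29367853-29369600, 157990 bp from Myt1l, a neuronal transcription factor gene, with 1416 ± 84.1 and 1379 ± 73.9 bp, and chr1:42538914-42540747, 155021 bp from Pou3f3, with 1395 ± 53.1 and 1377 ± 199 bp. Synaptic adhesion, receptor and channel genes had 29 regions (1.22%, against 2.67%), several of them beside Pcdha1, with a median of -0.08 and 0 called. Among these, chr8:83874523-83876417, 23681 bp from Adgrl1, a latrophilin gene, had 1625 ± 121 and 1566 ± 184 bp, and chr18:36881231-36883512, 46773 bp from the protocadherin gene Pcdha1, had 1575 ± 230 and 1497 ± 339 bp. Activity and calcium signalling genes had 2, beside Pde10a (447 ± 170 and 450 ± 139 bp) and Adcyap1 (340 ± 28.0 and 311 ± 30.2 bp). The immune gene list had 45 regions with a median of 0.20 and 0 called; 19 of these lie beside genes whose symbols start with Cd, a start that immune and other genes share. Its widest were chr8:3764496-3768972, 15512 bp from Cd209a, a lectin receptor gene, with 3377 ± 263 and 1562.5 ± 704 bp (limma adjusted p = 0.446), and chr4:114145099-114148037, 15347 bp from Skint11, with 2274 ± 338 and 1884.5 ± 422 bp (limma adjusted p = 0.725). The 1092 regions whose neighbour was on no list had a median of 0.07 and 0 called.

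Many of the widest shared distal regions stood at chromosome starts. Within 1 Mb of the first region of its chromosome lay 173 of the 2372 (7.29%), and 9 of the 16 that averaged over 4 kb. At chr17:3005822-3023923, whose nearest gene was the pseudogene Gm10232, peaks covered 16339, 12004, 14458 and 14271 bp in the transgenic group and 8261, 7781, 9647 and 9068 bp in controls (log2 0.60 ± 0.11, limma adjusted p = 0.334). The groups lay far apart there, yet the region did not pass. At chr16:3649315-3659960 the lengths were 7649 ± 993 and 4009 ± 933 bp (log2 0.83 ± 0.16, limma adjusted p = 0.358). By contrast, chr16:3231468-3241805 had 10035, 9981, 10008 and 9994 bp in the transgenic group and 9915, 9380, 9392 and 10007 bp in controls, nearly its whole length in every one. On chromosome 4, chr4:3061507-3071879 had 10079 ± 297 and 8469 ± 526 bp, chr4:3078703-3087306 had 8150 ± 417 and 7165 ± 487 bp, and chr4:3049898-3056689 had 6676 ± 96.7 and 6381 ± 189 bp. On chromosome 3, chr3:3021147-3033696 had 10020 ± 1020 and 8096 ± 871 bp. Over the 173 regions the median log2 difference was 0.29, and 0 passed.

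These values differed little between classes of distance. Of the 2372, 1199 lay from 10 to 20 kb away from the nearest gene, 892 from 20 to 50 kb, 203 from 50 to 100 kb and 78 farther. Median covered length was 679, 683, 651 and 627 bp in these classes, and the median log2 difference 0.20, 0.22, 0.14 and 0.15. The nearest gene was protein-coding for 43.5%, a pseudogene for 34.9% and a long noncoding RNA for 15.1%. Where its strand was known (1191 regions), the region lay before its start at 619 (52.0%) and past its end at 572 (48.0%). Around the 10-kb limit, the nearest members on chromosomes 5 and 2 (10002 and 10005 bp from a gene) had 350 ± 137 and 345 ± 81.9 bp, and 912 ± 79.4 and 739 ± 96.3 bp. The 2 shared regions just under it, both 9994 bp away, had 561 ± 75.4 and 545 ± 123 bp, and 686 ± 318 and 565 ± 147 bp.

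The most remote region, chr15:15089930-15090805, lay 623261 bp from any gene and 1637745 bp from the nearest protein-coding one, the cadherin gene Cdh9. It had 742, 840, 787 and 732 bp covered in the transgenic group and 840, 762, 623 and 733 bp in controls, with summits within 59 bp of each other and a fold enrichment of up to 22.2. The groups overlapped there. The next in distance was chr16:69469247-69470172, 325969 bp from the noncoding 4930428D20Rik, with 565 ± 241 bp in the transgenic group and 515 ± 128 bp in controls. On chromosome 3, chr3:16466510-16467106, 249473 bp from Ythdf3, a reader of methylated RNA, had 524 ± 35.8 and 358 ± 95.2 bp, and chr3:11213043-11213828, 197844 bp from the pseudogene Gm8910, had 243 ± 42.7 and 354 ± 288 bp. At chr4:142909529-142910072, 197319 bp from Prdm2, peaks covered 303 ± 75.2 and 441 ± 43.2 bp. None of these 5 passed the test. Chosen after its values were seen, chr9:3002114-3002585 had the lowest fold enrichments of all (1.63 to 2.20) at nearly fixed limits, with 395 to 472 bp covered and summits within 8 bp in all libraries.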

How the data were processed

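The members and gene lists were chosen with earlier results of these data known. Each library has 1 deposited list of peaks in the MACS2 narrowPeak layout, with a score, a fold enrichment (ratio) at the summit, and −log10 p-values and q-values. The submitters' processing notes name the build mm10, Bowtie2 2.0.2, FastQC 0.11.5, deepTools 3.0.1, SAMtools 1.3.1, DiffBind, limma and MACS2. Neither settings nor the input used for each list are given there. A deeper library or better precipitation widens peaks.

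Overlapping or touching peaks were merged across libraries. Gene positions came from RefSeq (GRCm38.p6, the coordinates of mm10). Covered length per region and library was tested as log2(bp + 100) after subtracting the library's median over regions shared by all 8, in limma 3.58.1 (trended, robust; R 4.3.3), with Benjamini-Hochberg adjustment over all 72683 regions. Differences on this scale understate changes of short regions. Regions named were those past an adjusted p of 0.05, the 5 smallest p in each direction, the 8 widest, the 5 most remote, the 5 most enriched, those beside the 10-kb limit and the 2 widest per gene list, with others said to be chosen later; the 5 towards broader are among the 11 called.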

Additional observations from a re-analysis of the deposited data

Results flagged for a closer look

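In a group of 4 libraries, a value was singled out where its gap to the nearest other, as a share of the group's range, exceeded Dixon's 95% critical value. This held for 10 of 60 groups of values, and chance gives about 1 in 20. Transgenic replicate 1 stood above the others in summed covered length over the shared distal regions (2.76 Mb) and in median covered length (891 bp). It was also high at chr17:18400153-18402293 near Vmn2r95 (1784 bp) and at chr10:24754314-24755086 near Enpp3 (664 bp). Transgenic replicate 3 was high at the Crisp4 region (2150 bp). Control replicate 3 was low at the Enpp3 region (490 bp) and high at the Vmn2r95 region (829 bp). Control replicate 4 was high at the Mir124a-1hg region (3906 bp), control replicate 2 low at the Klrb1c region (1339 bp) and control replicate 1 high at the Gm51480 region (1762 bp).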

How the results depend on the processing

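The number of shared distal regions that passed in limma, 11, was 2 with a pseudocount of 10 bp, 31 without centring and 19 with centring on shared regions over genes. It was 0 where a peak in 4 or more libraries was required, 172 with no such filter and 2 on autosomes only. With the same number of top peaks per library it was 0, and with peaks of −log10 q of at least 5 it was 1. With peaks up to 500 bp apart joined it was 5, and with ordinary variances 1. A term for having more than 5000 X peaks gave 5, and a term for having more than 100 Y peaks gave 4. The number was 0 in each subset by X peaks, and 3 to 16 with 1 library left out. With a replicate block it was 0, and the block changed no median. Same-numbered libraries deviated from their group means with correlations of -0.12, -0.10, -0.16 and -0.05, no library correlated best with its own number, and the libraries were treated as sharing only a number. The median log2 difference, 0.20, was 0.057 with quantile normalization, 0.078 without the 5 libraries with few Y peaks, and 0.11 to 0.23 with 1 library left out. Regions with groups apart numbered 178 on the centred scale. The rule itself gave 1168 regions with −log10 q of at least 5, 503 where peaks cover 50% of the region in every library, 1173 beyond 20 kb, 281 beyond 50 kb and 5071 by protein-coding genes alone. Median covered length was 772 bp with the stricter q, 808 bp with joined peaks and 554 bp with a peak in at least 7 libraries. Among named regions the sign changed at the let-7 region (0.0066 with a pseudocount of 500 bp, 0.090 without centring, 0.012 with quantile normalization, 0.020 with equal peak numbers, 0.017 with the stricter q, 0.041 with joined peaks, 0.046 with centring over genes), at chr16:3231468-3241805 (0.049 without centring, 0.12 with joined peaks, 0.0045 with centring over genes), at chr4:3049898-3056689 (0.064, 0.010 and 0.020 without centring, with quantile normalization and with centring over genes), at chr4:3078703-3087306 (-0.065 without the 5 libraries) and at the Klrb1c region (0.014 without centring, -0.20 to 0.0055 with 1 library left out, 0.045 among libraries with few X peaks, 0.15 without the 5 libraries); none of these passed. The cause was not tested for any of these changes. The subsets by X and Y peaks, the terms for them, centring over genes and the centred counts were chosen after seeing the data. With no read counts, depth could not be matched.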
